A study of Mus musculus with 11 samples.

Results

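The metallothioneins Mt1 and Mt2 and 5 genes of zinc handling, Mtf1, Slc30a1, Slc30a10, Slc39a4 and Slc39a14, were followed in mouse liver in which an active form of a Notch receptor had been delivered by a viral vector. These are 7 of the 22911 named genes with a probe on the arrays, and they are read by 10 of 56605 probes. All probes of these genes were taken, named through the RefSeq accession that the array files give. Mt1 and Mt2 were chosen because they differed from GFP in opposite directions in the NICD1 and NICD2 groups of these same arrays, so their values in those groups are given as a description without a test. The other 5 genes were added for their role in zinc handling.

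Metallothioneins are small cysteine-rich proteins that bind zinc and copper and are abundant in hepatocytes. Free zinc activates the transcription factor Mtf1, which binds metal response elements in the promoters of Mt1, Mt2 and Slc30a1. Zinc leaves the cytosol through transporters of the SLC30 family and enters it through those of the SLC39 family. In liver, metallothionein genes are also known to respond to glucocorticoids, to inflammatory cytokines and to oxidative stress.

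RNA from liver was hybridised to 11 Agilent arrays in 1 colour, 3 each for GFP, NICD1 and NICD2 and 2 for NICD1&2, to compare forced signalling through Notch1 and Notch2. NICD stands for the intracellular domain of a Notch receptor, of Notch1 in NICD1 and of Notch2 in NICD2, which acts without ligand. All mice were male C57Bl6/J, 8 weeks old at injection, received AAV8 vectors whose transgene is driven by the CMV promoter, and were sampled on day 5. Mice of the GFP group were given 6e+11 viral genomes of a vector for GFP. In the NICD1 and NICD2 groups that vector was given at 3e+11 together with 3e+11 of the respective NICD vector, and in the NICD1&2 group both NICD vectors were given at 3e+11 without it. The mice kept their own Notch1 and Notch2 genes. The mean log2 signal, on the scale defined below, was 0.55, 0.77, 0.18 and 0.71 for Notch1 and 1.76, 2.05, 1.97 and 1.76 for Notch2 in GFP, NICD1, NICD2 and NICD1&2, so neither probe stood out in the groups given its vector. Whether these probes lie in the intracellular domain is not known here, so they do not check the labels. The methods describe the experiments in general as repeated in several mice per group, but neither they nor the labels tie each array to an animal of its own, so the p-values measure the spread between arrays. In tissue RNA, fewer cells of a type and less RNA per cell cannot be told apart.

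Between 57.0% and 62.0% of the spots that were not controls were well above background on an array, and all 10 probes of the 7 genes were well above it on all 11 arrays. Values are log2 signals relative to the 75th percentile of the array, so that 0 is that percentile. All 7 hepatocyte markers with a probe were well above background on every array. The summed linear level of 5 bile duct markers, among them Spp1, was 6.9 to 9.9 in GFP, 22.4 to 30.7 in NICD1, 22.4 to 30.5 in NICD2 and 32.4 to 40.1 in NICD1&2. Most of that sum was Spp1, which is also a Notch target and was higher than GFP by 1.71, 1.81 and 2.23 in log2 in NICD1, NICD2 and NICD1&2. Krt19 differed by 0.07, 0.09 and 0.29, and Krt7 by 0.44, 0.16 and 0.63. Means in GFP, NICD1, NICD2 and NICD1&2 were -3.89, -3.19, -3.41 and -3.14 for Epcam and -1.72, -1.49, -0.88 and -0.56 for Sox9. All 5 markers had a mean above that of GFP in each NICD group. Of the 5, Spp1 alone met the study's definition of an altered gene, given below, in NICD1 and NICD2, and Spp1 and Sox9 in NICD1&2. Of the other cell type markers, Cd79a, of B cells, met it as lower in NICD1, where it was well above background on 1 of 3 arrays, and Lyve1, of sinusoidal and lymphatic endothelium, as higher in NICD2 and NICD1&2, by 0.86 and 0.93. The part of these cells in the metallothionein values was not tested. Of 8 tested Notch targets, 2 met that definition as higher in NICD1, 3 in NICD2 and 4 in NICD1&2, with a median difference of 0.04, 0.56 and 0.93, and 1.73%, 1.32% and 4.78% of all probes did. Nrarp was well above background on no GFP array and on 2 of 3 NICD1 arrays. It was at least 1.29-fold, 4.65-fold and 7.07-fold higher in NICD1, NICD2 and NICD1&2, while Hes1 differed from GFP by -0.03, 1.64 and 1.36.

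Mt1 and Mt2 lie side by side on chromosome 8, in the gene order Mt4, Mt3, Gm39227, Mt2, Mt1. The other genes lie elsewhere: Slc30a1 and Slc30a10 on chromosome 1, Mtf1 on chromosome 4, Slc39a14 on chromosome 14 and Slc39a4 on chromosome 15. The stretches upstream of Mt1 and Mt2 are shown for their matches to the metal response element, the motif that Mtf1 binds. They are the 250 bases before each RefSeq gene start in GRCm38.p6, both on the plus strand, chr8:94178839-94179088 for Mt1 and chr8:94172368-94172617 for Mt2. Capitals mark the core of the metal response element, TGCACNC or TGCGCNC, searched on both strands.
Mt1: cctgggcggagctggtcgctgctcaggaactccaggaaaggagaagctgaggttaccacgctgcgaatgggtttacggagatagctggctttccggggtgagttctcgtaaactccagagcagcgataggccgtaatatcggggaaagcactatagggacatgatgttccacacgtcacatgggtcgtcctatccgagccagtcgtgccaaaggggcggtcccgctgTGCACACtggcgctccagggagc
Mt2: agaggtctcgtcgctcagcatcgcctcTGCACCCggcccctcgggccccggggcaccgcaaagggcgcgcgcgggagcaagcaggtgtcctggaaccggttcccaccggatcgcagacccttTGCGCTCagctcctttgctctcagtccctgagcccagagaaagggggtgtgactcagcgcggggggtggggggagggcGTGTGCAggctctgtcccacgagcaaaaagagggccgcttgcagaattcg

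The printed stretch of Mt1 holds 1 match and that of Mt2 holds 3. Both counts depend on the RefSeq gene start, which was not checked against the start of the curated transcript. The genes are therefore not compared by them. With the 50 bases after the start included, the Mt1 window held 3 matches to that core, which began at bases -23, 3 and 21 relative to the start. The Mt2 window held 4, at bases -223, -128, -50 and 5. Of 32851 promoter windows of this length, 25.7% held at least 1 match, 1.97% at least 3 and 0.517% at least 4. Slc30a1 had 2 matches, Slc30a10 had 3 of which 2 did not overlap, and Mtf1 had none. These were the 5 of 7 genes with a promoter entry. The core TGGGAA, which Rbpj, the DNA-binding partner of NICD, recognises, occurred once upstream of Mt2, at base -151, and in 25.6% of all windows, and the other 4 promoters did not hold these letters. The core TGTTCT of the glucocorticoid receptor site was in neither metallothionein window and in 19.0% of all windows. Sites outside the windows were not searched, so its absence there does not speak to glucocorticoid control.

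Both metallothioneins were lowest in NICD1 and highest in NICD2 by their group means. In NICD1&2 they lay near their NICD2 level at the brightest probe of each gene. Mt2 was read by probe A_51_P246317. Its log2 signal was 4.84, 3.20 and 4.30 on the GFP arrays, 2.75, 3.33 and 3.24 in NICD1, 6.46, 5.47 and 5.29 in NICD2, and 6.34 and 4.91 in NICD1&2. The NICD1 arrays lay below all GFP arrays but GFP 2, and all 3 NICD2 arrays and both NICD1&2 arrays lay above every GFP array. Of all tested probes 7.63% lay wholly above GFP in NICD2 and 24% in NICD1&2. From the lowest array, NICD1 1, to the highest, NICD2 1, the signal spanned 13.1-fold.

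Mt1 was read by 2 probes. The brighter, A_66_P111660, for the curated transcript, gave log2 signals of 7.01, 5.69 and 6.15 in GFP, 6.23, 5.60 and 5.68 in NICD1, 7.83, 7.14 and 7.10 in NICD2, and 7.58 and 6.85 in NICD1&2. Again NICD1 overlapped GFP, NICD2 lay wholly above GFP, and NICD1&2 overlapped it through GFP 1. The other, A_52_P423810, named through a predicted Mt1 transcript, gave 0.05, -2.07 and -0.59 in GFP, -3.70, -3.13 and -1.71 in NICD1, 0.50, 1.49 and 0.50 in NICD2, and 1.09 and -0.91 in NICD1&2. It showed the same order of group means as the brighter probe with a wider span over the arrays, 36.6-fold against 4.72-fold. Probe sequences were not used here, so whether the Mt1 and Mt2 probes bind each other's transcripts was not tested.

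**Figure D1:**
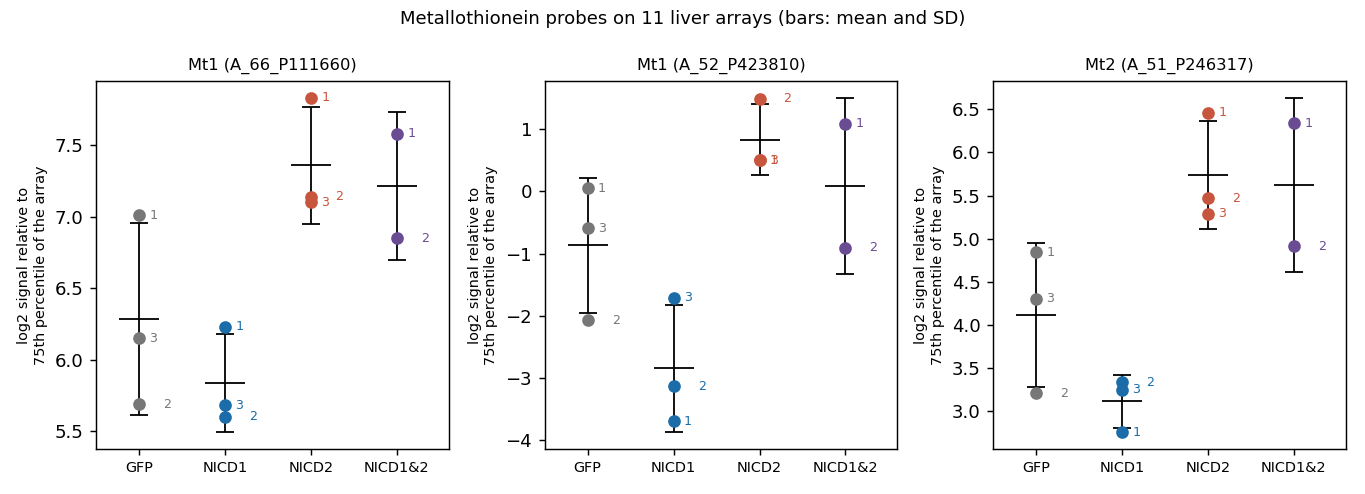
Log2 signal relative to the array's 75th percentile (y axis) of the 2 Mt1 probes and the Mt2 probe in GFP, NICD1, NICD2 and NICD1&2 liver (x axis). Points are arrays with their replicate number and bars are mean and SD; in each panel all NICD1 arrays lie below all NICD2 arrays, and GFP lies below NICD2 and overlaps NICD1.

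In NICD1 the mean of Mt2 was 3.11 ± 0.31 (SD, n = 3) against 4.11 ± 0.84 (SD, n = 3) in GFP, a log2 difference of -1.01 with a standard error of 0.51. For Mt1 the difference was -0.44 (SE 0.37) at the brighter probe and -1.98 (SE 0.73) at the other. The study defined altered genes by P under 0.15 and a fold change over 1.8, applied here to each probe with limma's unadjusted P. By this definition 1 of the 7 genes, Mt2, was altered in NICD1 when each gene was read by its brightest probe, against 2.22% of all 36055 tested probes. This comparison chose Mt1 and Mt2, so nothing is read from that count. Mt2 was inside the definition at 2.01-fold, and the next largest change was outside it, that of Mt1 at its brighter probe, at 1.36-fold. The count was 0 without GFP 1, without GFP 3 or without NICD1 1, and the Mt2 difference was between -1.46 and -0.64 over the fits that left out an array. That of Mt1 at its brighter probe was between -0.74 and -0.08, the latter without GFP 1. At the dimmer Mt1 probe the definition was met, so that the choice of probe decided whether Mt1 counted as lower.

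In NICD2 the mean of Mt2 was 5.74 ± 0.63 (SD, n = 3), a log2 difference from GFP of 1.63 (SE 0.51). Mt1 was higher by 1.08 (SE 0.37) at the brighter probe and by 1.70 (SE 0.73) at the other. By the same definition 2 of the 7 genes, Mt1 and Mt2, were altered in NICD2, against 1.98% of all tested probes, and 3 probes in all, 0.00832%, were altered in opposite directions in the 2 groups, Mt2 and the dimmer Mt1 probe among them, which is the pattern for which both genes were chosen. The count was 1 without GFP 2 or without NICD2 1. Without an array the Mt2 difference stayed between 1.17 and 2.00 and the Mt1 difference between 0.78 and 1.44.

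Set directly against each other, NICD1 was lower than NICD2 by a log2 difference of -2.64 (SE 0.51) for Mt2, and of -1.52 (SE 0.37) and -3.68 (SE 0.73) for the brighter and the dimmer Mt1 probe. These are 6.22-fold, 2.87-fold and 12.8-fold. Every NICD1 array lay below every NICD2 array at all 3 probes, while 9.26% of all probes separated these groups in either direction. Here too 2 of the 7 genes met the definition, against 1.26% of all probes, and this did not depend on any single array. Because the NICD1 and NICD2 arrays chose both genes, these values are a description.

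The NICD1&2 arrays played no part in the choice of Mt1 and Mt2, but the GFP arrays did, so NICD1&2 against GFP is given as a description too. Mt2 was higher by 1.51 (SE 0.57), and the closest pair of arrays was NICD1&2 2 at 4.91 and GFP 1 at 4.84. Mt1 was higher by 0.94 (SE 0.41) at the brighter probe and by 0.96 (SE 0.82) at the dimmer. Both genes met the study's definition at their brightest probe, 2 of the 7, against 6.22% of all tested probes. The values rested on NICD1&2 1: without it the differences were 0.79 for Mt2 and 0.58 for Mt1, and 0 genes met the definition. Without GFP 2, Mt1 was at 0.64 and the count was 1.

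Against the single vectors, NICD1&2 was higher than NICD1 by 2.51 (SE 0.57) for Mt2 and 1.38 (SE 0.41) for Mt1, with no overlap of arrays, as for 21.9% of all probes. Here 2 of the 7 genes met the definition, against 2.7% of all probes. Against NICD2 the differences were -0.12 (SE 0.57) and -0.14 (SE 0.41), and -0.74 (SE 0.82) at the dimmer Mt1 probe. The groups overlapped, and 0 of 7 genes met the definition, against 3.07% of probes. Leaving out an array moved the Mt2 difference between -0.84 and 0.59, and that of the brighter Mt1 probe between -0.50 and 0.22, so neither sign was determined. The groups of both single vectors had chosen the genes, and no test is given.

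The spread between arrays of 1 group was itself large for these genes. The SD of Mt2 in GFP exceeded that of 91.1% of tested probes, and that of Mt1 exceeded 87.7% of them at the brighter probe and 94.5% at the dimmer, where the median SD over probes was 0.17. In NICD1&2 the Mt2 SD exceeded that of 98.1% of probes. The arrays were spread over 2 slides. Within slide 1 the Mt2 difference of NICD1&2 from GFP was 2.31 and within slide 2 it was 0.61. For NICD2 against GFP the Mt2 values were 1.95 and 1.0, and for NICD1 against GFP -1.27 and -1.01, on slides 1 and 2. Each slide held 1 or 2 arrays of a group, so these are values of few arrays. At the dimmer Mt1 probe NICD1&2 differed from GFP by 2.10 on slide 1 and -0.32 on slide 2.

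**Figure D2:**
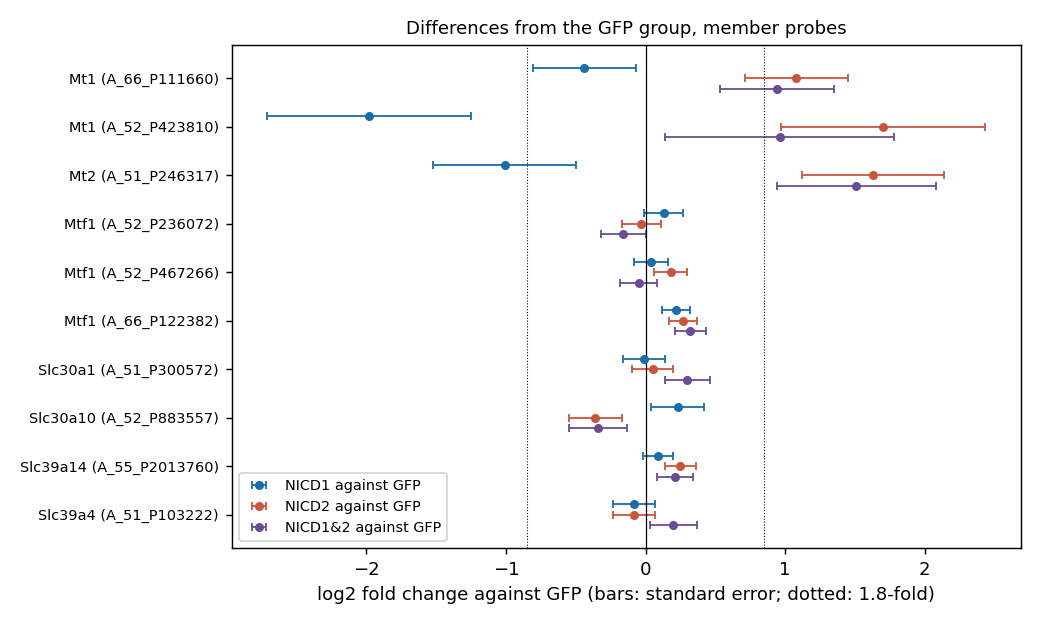
Log2 fold change against GFP (x axis) of the 10 probes of the 7 genes (y axis) in NICD1, NICD2 and NICD1&2; points are limma estimates, bars are standard errors and dotted lines mark 1.8-fold. The 3 metallothionein probes spread from -1.98 to 1.70, while the 7 other probes lie between -0.36 and 0.32.

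Mtf1, the zinc sensor, had 3 probes, which differed in direction in NICD2 and in NICD1&2. At the brightest, A_66_P122382, the log2 signals were 3.00, 2.83 and 3.01 in GFP, 3.12, 3.14 and 3.25 in NICD1, 3.20, 3.11 and 3.33 in NICD2, and 3.19 and 3.36 in NICD1&2. Each NICD array lay above each GFP array, a separation that 6.98%, 7.63% and 24% of all probes showed in NICD1, NICD2 and NICD1&2. The group means were higher by 0.22 (SE 0.10), 0.27 (SE 0.10) and 0.32 (SE 0.11) in that order. The adjusted p was 0.903, 0.670 and 0.272 in limma, and none of the 3 differences reached 1.8-fold. At the other probes, A_52_P236072 and A_52_P467266, the differences from GFP were 0.13, -0.03 and -0.16, and 0.04, 0.18 and -0.05, for NICD1, NICD2 and NICD1&2.

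The exporters and importers among the members differed little from GFP. Slc30a1, which carries zinc out across the plasma membrane and is itself a target of Mtf1, gave 1.86, 1.56 and 1.45 in GFP, 1.64, 1.78 and 1.40 in NICD1, 1.67, 1.52 and 1.82 in NICD2, and 1.90 and 1.95 in NICD1&2. Both NICD1&2 arrays were above all others, by 0.30 (SE 0.16) relative to GFP with an adjusted p of 0.398 in limma, in a group of 2 arrays that lay wholly above GFP for 24% of all probes. In NICD1 and NICD2 the differences were -0.01 and 0.05 (SE 0.15 in both), whose sign changed when single arrays were left out.

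Slc30a10, which is best known as a manganese exporter, was the only transporter among the 7 genes that separated the NICD1 arrays from the NICD2 arrays, as 9.26% of all probes did. Its values were 0.21, -0.05 and -0.29 in GFP, 0.52, -0.10 and 0.14 in NICD1, -0.63, -0.30 and -0.28 in NICD2, and -0.35 and -0.42 in NICD1&2. It thus ran the other way from the metallothioneins, highest in NICD1, with a log2 difference between NICD1 and NICD2 of 0.59 (SE 0.19). In limma this had an adjusted p of 1.0, and the exact two-sided permutation test gave p = 0.1, the smallest that 3 arrays against 3 allow. NICD1&2 was below NICD1 by -0.57 (SE 0.21, adjusted p = 0.368 in limma). Against GFP the differences were 0.23, -0.36 and -0.34 in NICD1, NICD2 and NICD1&2, with adjusted p of 0.919, 0.799 and 0.440 in limma. Leaving out an array gave 0.07 to 0.38, -0.48 to -0.23 and -0.47 to -0.21 in that order, and 0.43 to 0.74 in NICD1 against NICD2.

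Slc39a14, an importer of zinc, iron and manganese in hepatocytes, gave 3.10, 3.05 and 3.21 in GFP, 3.15, 3.30 and 3.17 in NICD1, 3.30, 3.25 and 3.55 in NICD2, and 3.43 and 3.23 in NICD1&2. The NICD2 and NICD1&2 arrays lay above those of GFP, as 7.63% and 24% of all probes did, by 0.25 (SE 0.11) and 0.21 (SE 0.13), with adjusted p of 0.756 and 0.430 in limma, and NICD1 overlapped GFP at 0.09 (SE 0.11). Slc39a4, the zinc importer known for dietary uptake in the intestine, gave 6.54, 6.79 and 6.87 in GFP, 6.85, 6.62 and 6.49 in NICD1, 6.61, 6.74 and 6.60 in NICD2, and 6.71 and 7.16 in NICD1&2. All its groups overlapped GFP, with differences of -0.08, -0.08 and 0.20 (SE 0.15, 0.15 and 0.17). Of the 5 genes other than Mt1 and Mt2, 0 met the study's definition in any of the 6 comparisons between groups, and 0 of them had an adjusted p under 0.05 in any of the 6, a threshold that 0.00832%, 0.0527% and 0.0915% of probes passed in NICD1, NICD2 and NICD1&2 against GFP, 0.00277% in NICD1 against NICD2, and 0.0139% and 0.00277% in NICD1&2 against NICD1 and against NICD2. Among those 5 genes, read by 7 probes, limma's unadjusted P was under 0.05 for the brightest probe of Mtf1 in NICD2 and NICD1&2 against GFP. It was also under 0.05 for Slc30a10 in NICD1 against NICD2 and in NICD1&2 against NICD1. The share of all probes under that unadjusted threshold was not counted, so nothing is read from these values.

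**Figure D3:**
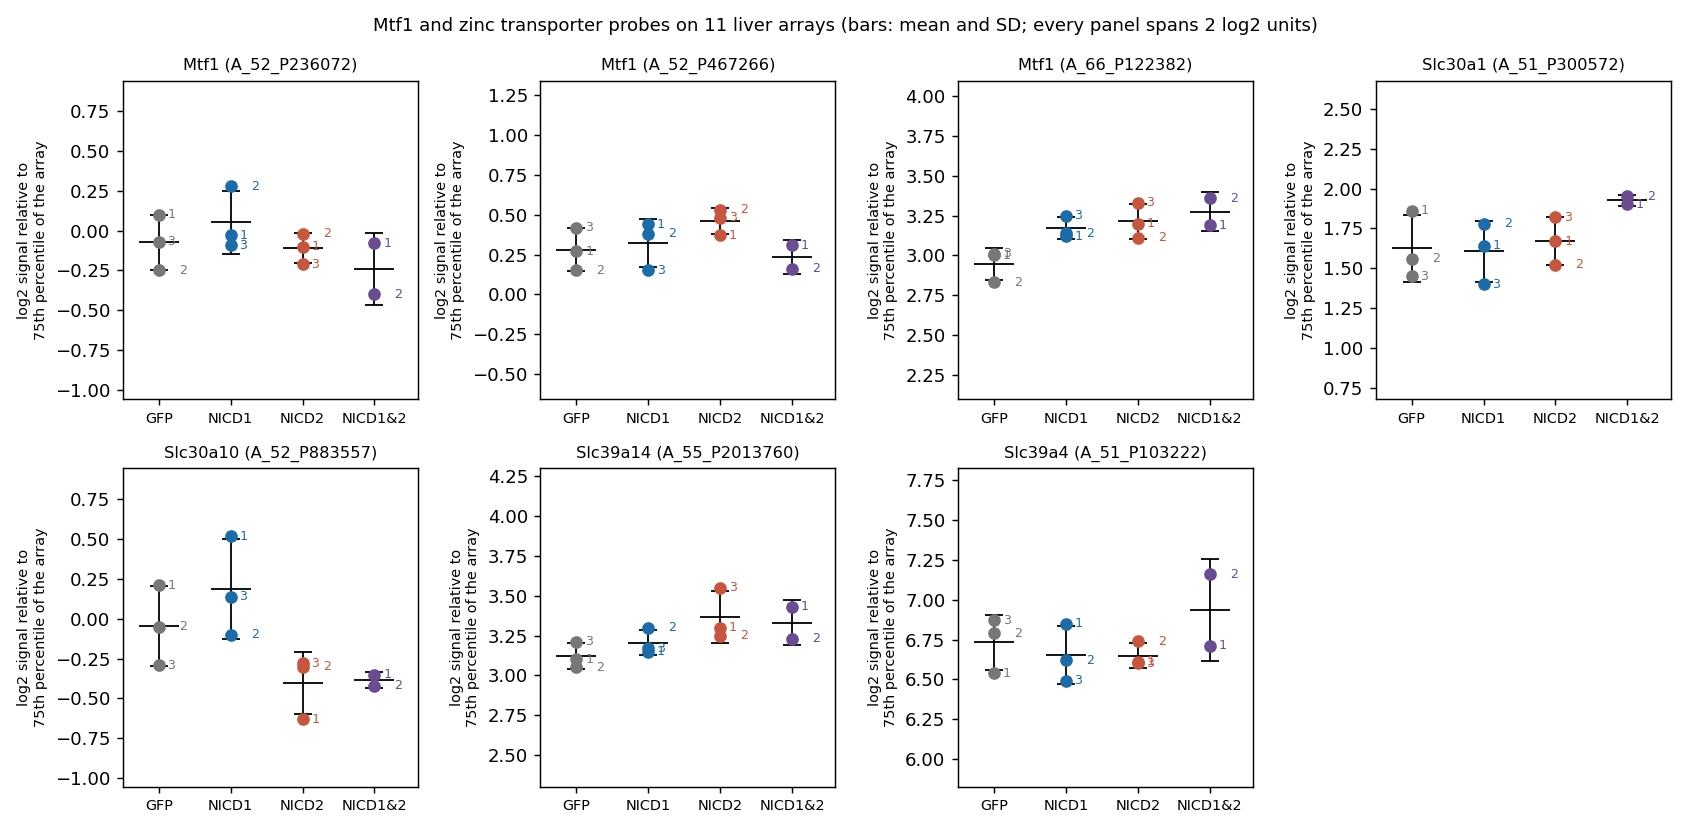
Log2 signal relative to the array's 75th percentile (y axis) of the 3 Mtf1 probes and the probes of Slc30a1, Slc30a10, Slc39a14 and Slc39a4 by group (x axis), each panel spanning 2 log2 units. Points are arrays with their replicate number and bars are mean and SD; for Slc30a10 all NICD2 and NICD1&2 arrays lie below all NICD1 arrays.

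Of the 20 other genes of the SLC30 and SLC39 families, 18 were tested, and Slc30a3 and Slc39a12 were too dim. The study's definition was met by 0 of the 18 in NICD1, 0 in NICD2 and 2 in NICD1&2 against GFP, and by 2.22%, 1.98% and 6.22% of all probes. Their log2 differences lay between -0.84 and 0.44 in NICD1, between -0.29 and 0.28 in NICD2 and between -0.18 and 1.33 in NICD1&2. The medians were -0.04, -0.0007 and 0.14, beside 0.01, 0.02 and 0.12 over all tested probes. The 2 in NICD1&2 were Slc30a8, a transporter best known from insulin granules, at 1.33 (SE 0.74, adjusted p = 0.408 in limma) and Slc39a5 at 0.89 (SE 0.39, adjusted p = 0.336). Slc30a8 was well above background on only 2 of the 11 arrays, 1 of them GFP and 1 NICD1&2, and its groups overlapped. The count in NICD1&2 was 1 without any single GFP array or either NICD1&2 array, and in NICD1 it was 1 without GFP 3. The neighbours of Mt1 and Mt2 on chromosome 8 were measured too. Mt3, expressed mainly in brain, differed from GFP by -0.10, -0.07 and 0.23, and Mt4, of stratified epithelia, by -0.03, -0.16 and 0.72 in NICD1, NICD2 and NICD1&2, and neither met the definition against GFP. Of 6 other genes reported as Mtf1 targets, among them Slc30a1 and Slc39a10, 0 met it in any of the 3 comparisons.

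**Figure D4:**
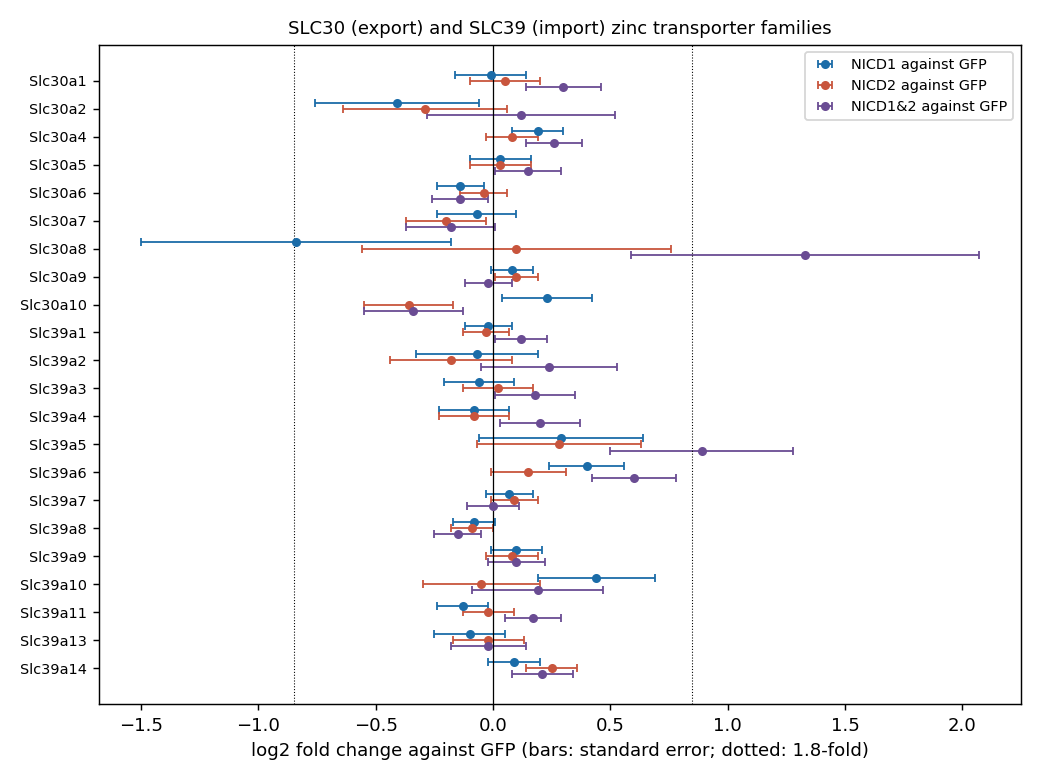
Log2 fold change against GFP (x axis) of each tested gene of the SLC30 and SLC39 zinc transporter families (y axis) in NICD1, NICD2 and NICD1&2; points are limma estimates, bars are standard errors and dotted lines mark 1.8-fold. Most points lie near 0, and the widest bars belong to Slc30a8, which was dim.

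Genes of the other pathways known to act on metallothioneins were described by the same definition, from lists drawn up with earlier results of these data known. Of 12 tested genes known to be induced by glucocorticoids, 0 met it in NICD1, 6 were higher in NICD2 and 4 in NICD1&2, and none was lower, where 1.73%, 1.32% and 4.78% of all probes were higher in those groups. The list's median difference from GFP was 0.19, 0.82 and 0.77, beside 0.01, 0.02 and 0.12 over all tested probes. The count in NICD2 was 3 without GFP 2 and 4 without GFP 1, NICD2 1 or NICD2 2, that in NICD1&2 was 7 without GFP 3, and that in NICD1 was 2 without NICD1 1. The median was between -0.00 and 0.43 in NICD1, 0.59 and 1.06 in NICD2, and 0.51 and 1.01 in NICD1&2 when single arrays were left out, lowest without GFP 1 and highest without GFP 3. Its mean log2 signal was 2.94 to 3.84 in GFP, 3.27 to 3.63 in NICD1, 4.04 to 4.24 in NICD2 and 4.15 to 4.38 in NICD1&2, so that NICD2 and NICD1&2 lay above all other arrays. The GFP arrays 1, 2 and 3 were at 2.94, 3.27 and 3.84. Its part in the metallothionein values was not tested.

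Zbtb16, a transcription factor gene, showed the largest difference of that list. It gave 0.25, 0.04 and 0.64 in GFP, -0.44, 1.29 and 1.41 in NICD1, 1.53, 2.48 and 3.38 in NICD2, and 3.69 and 2.48 in NICD1&2. The differences from GFP were 2.15 (SE 0.60, adjusted p = 0.437 in limma) in NICD2 and 2.78 (SE 0.67, adjusted p = 0.171) in NICD1&2. Fkbp5, a chaperone of the glucocorticoid receptor, was higher by 1.36 and 1.82, Cdkn1a, a cell cycle inhibitor that p53 also induces, by 1.19 and 1.84, and Ddit4, an inhibitor of mTORC1, by 1.17 and 1.23. In NICD2 Per1, a clock gene, at 0.86, and Sult1e1, at 1.21, were the others. Sult1e1, estrogen sulfotransferase, was well above background on 4 of 11 arrays, 1 GFP, 2 NICD2 and 1 NICD1&2, and no gene of the list had an adjusted p under 0.05.

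Of 20 genes of the acute phase and Stat3 list, 2 were lower in NICD1, 1 was higher and 1 lower in NICD2, and 1 was higher in NICD1&2. Of all tested probes 0.494%, 0.66% and 1.44% were lower in NICD1, NICD2 and NICD1&2, and 1.73%, 1.32% and 4.78% higher. The list's median was -0.32, -0.20 and -0.07, and 2 of the 20 genes had a difference above 0 in NICD1. The 2 lower in NICD1 were Saa1 and Saa2, serum amyloid A proteins, each with a difference of -1.53. Saa1 read 7.68, 5.36 and 6.45 on the GFP arrays, a wide spread. In NICD1 it read 4.92, 5.25 and 4.73, below all GFP arrays, and in NICD2 it read 5.54, 5.90 and 5.70. The part of this pathway in the metallothionein values was not tested. In NICD2 Cebpd, a transcription factor of the acute phase, was higher by 1.04 and Socs3, the feedback inhibitor of Stat3, lower by a log2 difference of -1.63, and Cebpd was higher by 1.05 in NICD1&2. The number lower in NICD1 was 4 without GFP 2 and in NICD2 it was 2 without GFP 2 or NICD2 2, and in NICD1&2 it was 2 without GFP 2 and 1 without GFP 3.

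Of 8 heat shock genes, 3 were higher in NICD1, namely Hspa1a by 1.15, Hspa1b by 1.02 and Hsph1 by 0.97. Hspa1a and Hspa1b are near-identical copies whose probes may share signal. In NICD2 Hsph1 was higher by 0.88, and in NICD1&2 Hsph1 by 1.06 and Hspb1 by 0.96. Of all probes 1.73%, 1.32% and 4.78% were higher in these groups. The list's median was 0.69, 0.36 and 0.32 in NICD1, NICD2 and NICD1&2, beside 0.01, 0.02 and 0.12 over all probes. In NICD1&2 it was 0.68 without NICD1&2 1 and 0.17 without NICD1&2 2. The list's mean log2 signal overlapped between the NICD groups, with NICD1 3 at 3.95, NICD2 3 at 3.97 and NICD1&2 2 at 4.06. The count in NICD2 was 0 without GFP 1 or NICD2 3, and that in NICD1&2 was 0 without NICD1&2 2 and 4 without NICD1&2 1. Of 10 tested genes of the Nrf2 list and 18 of copper and iron handling, 0 met the definition against GFP.

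**Figure D5:**
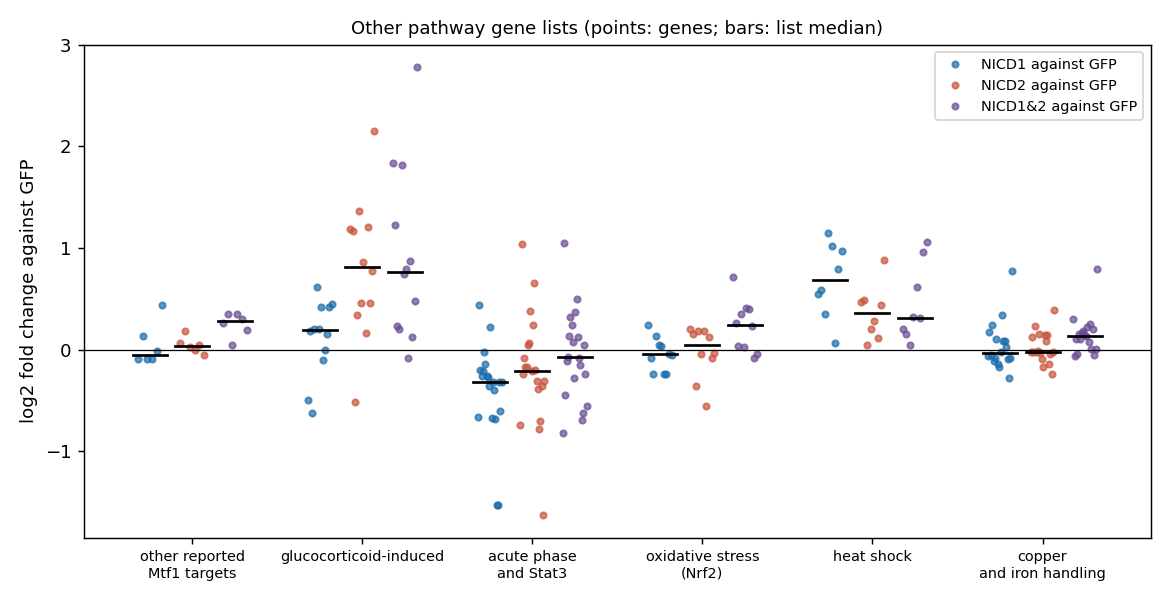
Log2 fold change against GFP (y axis) of the tested genes of 6 lists (x axis) in NICD1, NICD2 and NICD1&2; each point is a gene and each bar the list's median. The glucocorticoid list has medians of 0.19, 0.82 and 0.77, the heat shock list 0.69, 0.36 and 0.32, and the acute phase and Stat3 list -0.32, -0.20 and -0.07.

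The profiles nearest to the mean of Mt1 and Mt2 over the 11 arrays were sought among 13862 genes well above background on every array. They were Cyp2b10, Cyp2b9, Id1, Lcn2 and Jaml, with a root mean square difference of 0.55, 0.56, 0.58, 0.60 and 0.63 after each probe was centred on its own mean. A flat profile would differ by 0.98, and the profiles of Mt1 and Mt2 themselves differed by 0.59 between each other, and those of the 2 Mt1 probes by 1.11. Cyp2b10, a drug-metabolising cytochrome P450, had means of 2.59, 2.19, 3.52 and 2.84 in GFP, NICD1, NICD2 and NICD1&2, and Id1, an inhibitor of helix-loop-helix factors, 1.96, 1.04, 2.06 and 2.97. The other members ranked far lower, at 1228 for Slc39a14, 1382 for Slc30a1, 2681 for Mtf1, 8851 for Slc39a4 and 13640 for Slc30a10. They differed by 0.91, 0.91, 0.94, 1.0 and 1.22 in that order, beside 0.98 for a flat profile. The measure counts the size of a change as well as its shape.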

How the data were processed

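The authors' Feature Extraction software gave each spot a background-corrected intensity and a call of well above background, and these intensities were deposited without normalization between arrays. The deposited table of log2 values equals the values used here up to a constant of at most 0.0089 per array. Control spots were left out. Spots flagged as outliers were left out where an unflagged spot of the probe remained, from 56 on GFP 3 to 128 on NICD1&2 1. Spots of a probe were averaged, and the 75th percentile of each array was subtracted from the log2 intensities. A probe entered the fit if 2 or more of the 11 arrays had it well above background, which kept 36055 of 56605. The fit was a limma 3.58.1 model in R 4.3.3 with a mean per group and Benjamini-Hochberg adjustment over all of them. Where a gene had several probes, the brightest over all arrays stood for it. The number of arrays limits the precision. The labels name the NucleoSpin RNA XS kit and the methods the RNeasy Micro Kit. The methods do not name the test behind the study's definition of altered genes.

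Members, gene lists and tests were chosen with earlier results of these data known. Named were every member, list genes that met the definition against GFP, and the 5 genes with the nearest profile. Of the lists, Notch targets and cell type markers served to check the arrays. Over all tested probes same-numbered arrays did not deviate together (15 pairs, residual correlations from -0.41 to 0.17, 6 over 0.1), so no pairing was used. At the brighter Mt1 probe replicate 1 was the highest of each group, while at the Mt2 probe it was the lowest in NICD1. With the replicate number as a block, the SE of NICD1 and NICD2 against GFP was 0.15 for Mt1, where it was 0.37 without. For Mt2 it was 0.43, and 0.51 without. Promoters came from RefSeq (GRCm38.p6). The alternatives were other normalizations, filters, probes, thresholds, fits, blocks and single arrays left out, and differences within a slide, which were added after the data were seen.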

Additional observations from a re-analysis of the deposited data

How the results depend on the processing

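Over all alternatives the sign changed 28 times, in differences of Mtf1, Slc30a1, Slc30a10 and Slc39a4. Some of these were the same difference under several settings. Mt1 and Mt2 carry no test in the comparisons that chose them, so there a change of setting was counted only where it moved a value by over 1 SD, and a lost call shows in the number of members called. For Mt1 in NICD1&2 against GFP the definition was no longer met at 0.75 with quantile normalization, 0.76 with normexp and quantile normalization, and 0.96 at probe A_52_P423810. With the replicate number as a block, although over all probes the numbers did not pair the arrays, it was 0.85. In each of these fits but that of the probe 1 member was called there, as with the stricter rule of over 2-fold at P under 0.05, and the block changed no other call. At that probe Mt1 was at -1.98 in NICD1 and 1.70 in NICD2 against GFP, -3.68 in NICD1 against NICD2, and 2.94 and -0.74 in NICD1&2 against NICD1 and NICD2. In NICD1 against GFP the number of members called was 0 by that stricter rule, and 2 when probes were counted. It was 0 at an adjusted p under 0.05 in NICD1, NICD2 and NICD1&2 against GFP, in NICD1 against NICD2 and in NICD1&2 against NICD1.

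Leaving out single arrays gave 0 to 1 called members in NICD1, 1 to 2 in NICD2 and 0 to 2 in NICD1&2 against GFP. For NICD1&2 against GFP it gave 0.58 to 1.30 for Mt1, 0.79 to 2.22 for Mt2 and -0.02 to 0.43 for Slc39a4. It gave -0.10 to 0.10 and -0.04 to 0.17 for Slc30a1 in NICD1 and NICD2 against GFP. In NICD1 against NICD2 it gave -0.10 to 0.01 for Mtf1, -0.15 to 0.04 for Slc30a1 and -0.10 to 0.08 for Slc39a4.

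Within slides 1 and 2, Mt2 was at -3.22 and -2.01 in NICD1 against NICD2 and at 3.59 and 1.62 in NICD1&2 against NICD1. The other changes of sign were of small differences. Against GFP, Slc30a1 was at 0.06 in NICD1 with array weights and at 0.14 within slide 2, and at -0.11 in NICD2 within slide 1. Slc39a4 was at 0.05 in NICD1 with normexp and quantile normalization, at 0.18 within slide 1, and at 0.02 in NICD2 within slide 1. Slc30a10 was at 0.02 in NICD2 within slide 2. Mtf1 was at -0.03 in NICD2 and -0.16 in NICD1&2 at probe A_52_P236072, and at -0.05 in NICD1&2 at probe A_52_P467266. In NICD1 against NICD2, Mtf1 was at 0.01 with normexp and quantile normalization and at 0.16 at probe A_52_P236072, and Slc30a1 was at 0.05 within slide 1. There Slc39a4 was at 0.06 with quantile normalization, 0.02 with the percentile over probes detected on all arrays, 0.09 with normexp and quantile normalization and 0.17 within slide 1. The cause of these changes was not tested. Depth in the sense of counts does not apply to arrays, where the number of arrays limits the precision.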
